A study of Homo sapiens with 12 samples.

Results

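The genes described here are 31 components of the DNA damage checkpoint and its signalling, chosen by gene symbol for their known role. Their measured values did not enter the rule, but the choice was made with earlier results of these data known. They were 31 of the 18244 genes with a probe set that names 1 gene, and all 31 were measured. Each gene is represented by its probe set of highest mean over the 12 arrays, and ATM (ataxia telangiectasia mutated) is also shown by all 5 of its probe sets.

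RNA was measured on PrimeView arrays in IMR-32 and Kelly cells, both MYCN-amplified human neuroblastoma lines. Each line was treated for 6 h with THZ531 at 400 nM, THZ531 at 100 nM or the solvent DMSO, and each of these 6 groups had 2 arrays, described as biological duplicates. THZ531 binds covalently to CDK12 and to its relative CDK13, which phosphorylate the tail of RNA polymerase II during transcript elongation. The p-values measure the spread between duplicate cultures, pooled over all 6 groups of both lines, and not the spread between patients or lines. Values are linear intensities scaled by the study to ERCC RNA, a synthetic spike-in added to the total RNA, so a lower value means less signal relative to the spike-in. Per the study's methods, cells were counted before lysis and an equal number was taken for each replicate. Within such a bulk sample, fewer cells that express a gene and less RNA in each of them cannot be told apart.

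The checkpoint has 2 apical kinases. ATM responds mainly to double-strand breaks and acts through CHK2 (CHEK2), whereas ATR, carried by ATRIP, responds to single-stranded DNA at stalled replication forks and acts through CHK1 (CHEK1). Both branches restrain the CDC25 phosphatases, which remove inhibitory phosphates from cyclin-dependent kinases, while WEE1 places such a phosphate. Around breaks, MDC1 recruits the ubiquitin ligases RNF8 and RNF168, whose marks are read by 53BP1 (TP53BP1) and by the RAP80 (UIMC1) module that holds part of BRCA1. Several of these genes are transcribed at the entry to S phase under E2F factors.

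The promoters of the members that hold an E2F-type sequence are shown. RefSeq windows of 300 bases on GRCh38.p14, 250 before and 50 after an annotated start, were found for 28 of the 31 genes. The letters TTTCCCGC, TTTGGCGC or TTTCGCGC, searched on both strands, were present in 4 of these 28 genes (14.3%), against 3.30% of 27305 genes with such a window. CCAAT, the box bound by NF-Y, was present in 20 of 28 members, against 39.7% of all genes, and TTTGAA, a form of the CHR element of cell cycle promoters, in 5 of 28, against 18.2%. The 4 windows follow, 5′ to 3′ on the gene's strand, with the E2F-type letters or their reverse complement in capitals. They lie at chr3:48188368-48188667 for CDC25A, chr1:35769929-35770228 for CLSPN, chr15:66356636-66356935 for TIPIN and chr3:133661892-133662191 for TOPBP1, all on the minus strand, and a match of letters is a description of the sequence only.
CDC25A: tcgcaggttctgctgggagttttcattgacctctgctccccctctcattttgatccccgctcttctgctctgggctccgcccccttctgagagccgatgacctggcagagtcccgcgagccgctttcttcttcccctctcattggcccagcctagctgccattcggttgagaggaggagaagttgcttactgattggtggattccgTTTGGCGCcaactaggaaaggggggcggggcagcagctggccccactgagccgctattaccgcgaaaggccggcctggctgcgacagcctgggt
CLSPN: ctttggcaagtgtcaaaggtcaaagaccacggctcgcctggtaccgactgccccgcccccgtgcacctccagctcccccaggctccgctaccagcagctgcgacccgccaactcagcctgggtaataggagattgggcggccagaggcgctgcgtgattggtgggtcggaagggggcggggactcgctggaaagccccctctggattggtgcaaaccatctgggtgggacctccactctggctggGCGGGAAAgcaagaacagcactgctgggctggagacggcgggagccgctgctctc
TIPIN: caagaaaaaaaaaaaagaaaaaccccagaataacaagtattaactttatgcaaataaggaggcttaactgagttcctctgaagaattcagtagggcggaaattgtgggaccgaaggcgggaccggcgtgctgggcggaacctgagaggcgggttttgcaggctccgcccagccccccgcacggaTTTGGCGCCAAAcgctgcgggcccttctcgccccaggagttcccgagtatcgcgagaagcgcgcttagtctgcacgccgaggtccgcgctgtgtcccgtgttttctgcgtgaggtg
TOPBP1: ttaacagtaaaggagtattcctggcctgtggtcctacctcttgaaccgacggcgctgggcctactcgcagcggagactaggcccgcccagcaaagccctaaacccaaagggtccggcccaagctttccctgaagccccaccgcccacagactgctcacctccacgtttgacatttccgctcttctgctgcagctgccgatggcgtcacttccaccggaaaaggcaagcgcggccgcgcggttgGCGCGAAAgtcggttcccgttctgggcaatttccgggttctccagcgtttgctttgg
In TIPIN the capitals hold 2 overlapping matches, 1 on each strand. All 4 genes passed the test as lower in IMR-32 cells at 400 nM, with log2 changes between -1.60 for CLSPN and -3.34 for CDC25A. Of all 31 members 25 passed as lower there, as did 39.0% of all genes. Whether E2F factors had a part was not tested.

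Several arrays stood apart before any gene was compared. Over all genes, IMR-32 100 nM replicate 2 correlated best with IMR-32 DMSO replicate 1 (Pearson r = 0.9942) and at 0.9238 with its own duplicate. In Kelly cells, 100 nM replicate 2 was closest to 400 nM replicate 1 (r = 0.9884), and 400 nM replicate 2 was closest to 100 nM replicate 1 (r = 0.9862). The labels were kept, and results that rest on these arrays are given with and without them. Mean log2 intensity of the ERCC probe sets lay between 6.26 and 6.29 on all 12 arrays. The array's own hybridization controls were at 10.51 and 10.53 (log2) on the IMR-32 400 nM arrays, against 10.85 and 11.31 on the IMR-32 DMSO arrays. For replicates 1 and 2 they were at 10.55 and 11.03 in IMR-32 at 100 nM. In Kelly they were at 10.87 and 11.03 (DMSO), 11.16 and 10.63 (100 nM), and 10.75 and 10.90 (400 nM). Within each treated pair named here as unlike, the array with lower controls also had the lower median member change. Their part in the results was not tested. Of 12 adrenergic neuroblastoma markers 10 were measured, with a median log2 intensity of 11.61 and 11.77 on the IMR-32 DMSO arrays and 12.07 and 12.18 on the Kelly DMSO arrays. The same medians were 6.52 and 6.79 in IMR-32 and 6.00 and 6.18 in Kelly for mesenchymal markers, and 5.57 and 5.73 in IMR-32 and 5.42 and 5.66 in Kelly for the 4 measured Schwann-lineage markers. No marker was at 0. The summed intensity of the adrenergic markers was 13420 to 14576 in IMR-32 cells at 400 nM, against 33484 to 39930 in DMSO. That of the mesenchymal markers was also lower, at 4941 to 5221 against 9811 to 12072. The Schwann-lineage sum was 189 to 248 against 253 to 276. The part of these sums in the results was not tested.

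In IMR-32 cells most of the checkpoint genes were lower with 400 nM THZ531. Of the 31, 25 fell and 0 rose (limma, Benjamini-Hochberg over all genes, false discovery rate 0.05), where 39.0% of all 18244 genes fell and 0.395% rose. The median log2 change was -1.96 over the members and -0.67 over all genes. All 31 estimates were below 0 on the deposited scale, as were 91.4% of all genes, but 5 turned positive when arrays were centred on their medians and 7 under quantile normalization. In 30 of 31 genes both 400 nM arrays lay below both DMSO arrays, which held for 76.6% of all genes. The largest decreases were in PPM1D, PAXIP1, CDC25A, RAD17 and ATR, and the 6 genes that did not pass were ATM, HUS1, TIMELESS, RNF168, BABAM1 and BRCC3. At an unadjusted limma p under 0.05, 27 members were lower, against 50.2% of all genes. The count of 25 rests on having all 4 arrays: without any 1 of them no gene in the table passed. The median member change then ran from -2.20 to -1.52 (all genes -0.80 to -0.58). The count was 14 after median centring (15.8% of all genes lower) and 11 after quantile normalization (11.0% of all genes), and the 11 (ATR, ATRIP, TOPBP1, RAD17, WEE1, CDC25A, CDC25C, PPM1D, TIPIN, PAXIP1 and RNF8) passed under all 3 scalings.

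**Figure D1:**
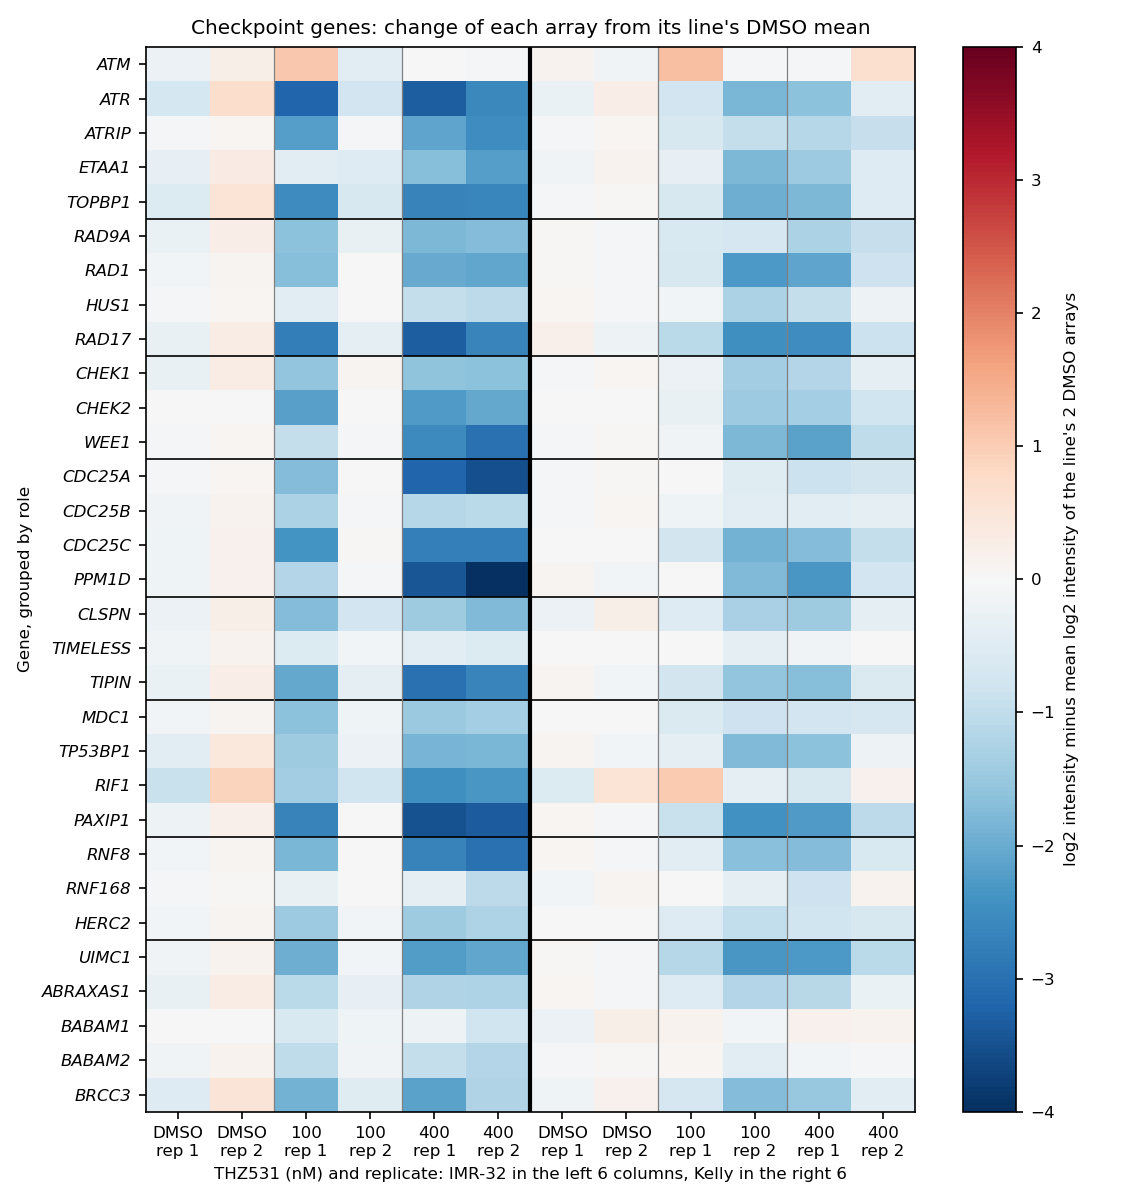
Change of each of the 31 genes (rows, grouped by role) on each array (columns) from the mean log2 intensity of the 2 DMSO arrays of the same line; blue is lower, red is higher. Both IMR-32 400 nM arrays are blue in 30 of 31 rows, whereas IMR-32 100 nM replicate 2 is close to DMSO (median change -0.12).

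Among the apical kinases and their activators, 4 of 5 genes fell in IMR-32 cells, where 39.0% of all genes fell. ATR was at 18.4 and 30.2 intensity units in 400 nM arrays, against 111 and 299 in DMSO arrays, a 7.73-fold lower level (log2 change -2.95 ± 0.81 SE, adjusted p = 0.0242). Its DMSO arrays differed from each other more than those of most members, yet neither reached down to the treated arrays. Its partner ATRIP was at 50.2 and 38.5 in treated arrays, against 204 and 232 in DMSO (log2 change -2.30 ± 0.56, adjusted p = 0.0190). TOPBP1 and ETAA1, the 2 proteins that switch ATR on, fell as well. TOPBP1 was at 196 and 208 in treated arrays, against 870 and 1817 in DMSO (log2 change -2.64 ± 0.70, adjusted p = 0.0221). ETAA1 was at 145 and 102, against 373 and 596 (log2 change -1.96 ± 0.49, adjusted p = 0.0203). For these 4 genes both treated arrays lay below both DMSO arrays, which held for 76.6% of all genes.

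ATM gave no single answer, because its 5 probe sets disagreed. The probe set that stands for the gene, 11720013_a_at, was at 60.5 and 56.3 in the treated IMR-32 arrays and at 50.5 and 70.1 in their DMSO controls, with overlapping arrays (log2 change -0.03 ± 0.54, 95% confidence interval -1.24 to 1.19, adjusted p = 0.969). The second probe set, 11720014_a_at, was at 80.4 and 88.5, against 189 and 359, and passed as lower when every probe set was tested (log2 change -1.63 ± 0.51, adjusted p = 0.0355). 11741374_x_at was at 44.9 and 55.5, against 87.9 and 178 (log2 change -1.33 ± 0.48, adjusted p = 0.0560). These 2 probe sets had both treated arrays below both DMSO arrays, unlike 11720013_a_at. The same held narrowly for 11751874_a_at, at 58.4 and 55.2 against 59.0 and 115, but not for 11745546_a_at. Among all genes it held for 76.6%. The probe sets 11751874_a_at and 11745546_a_at lay between 29.4 and 115 units on these 4 arrays. Their estimates were -0.54 ± 0.41 (11751874_a_at, adjusted p = 0.314) and -0.06 ± 0.31 (11745546_a_at, adjusted p = 0.882).

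The first 2 probe sets also ran opposite ways between the lines. 11720013_a_at was lower in IMR-32 than in Kelly cells in DMSO, with 50.5 and 70.1 in IMR-32 against 265 and 220 in Kelly (log2 difference -2.02 ± 0.54, adjusted p = 0.0732). 11720014_a_at read higher in IMR-32, with 189 and 359 in IMR-32 against 104 and 156 in Kelly (log2 difference 1.04 ± 0.51, adjusted p = 0.374). Neither difference passed. With THZ531, 11720013_a_at read 550 and 236 (100 nM) and 230 and 375 (400 nM) in Kelly cells, whereas 11720014_a_at read 64.5 and 34.4 (100 nM) and 45.1 and 92.1 (400 nM). In IMR-32 cells given 100 nM, 11720013_a_at read 125 and 43.6, and 11720014_a_at read 85.8 and 173. Replicate 1 at 100 nM was the highest array of each line for 11720013_a_at. Which transcript each probe set measures was not tested.

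**Figure D2:**
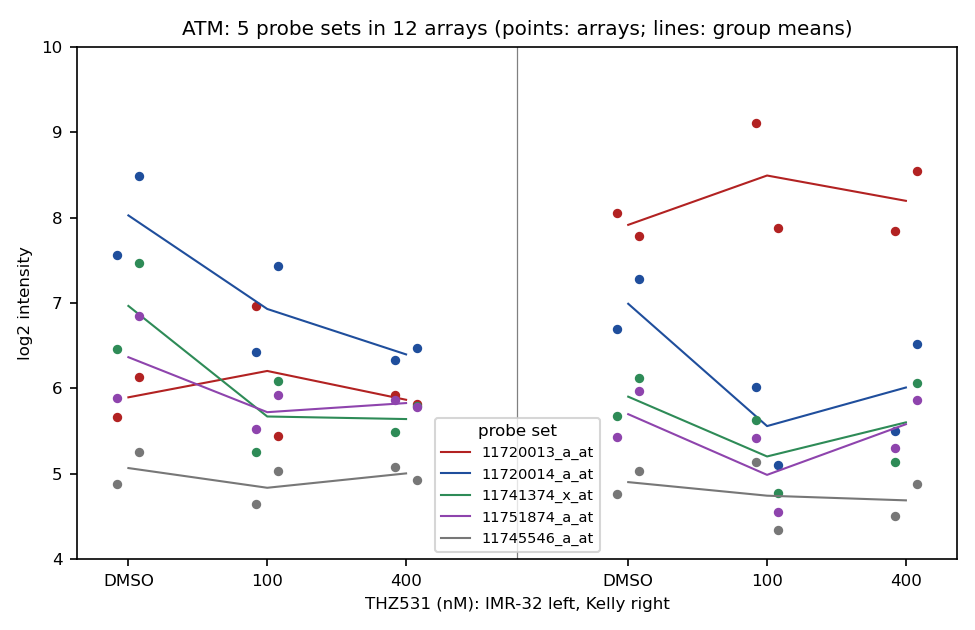
Log2 intensity of the 5 ATM probe sets by THZ531 dose, IMR-32 on the left and Kelly on the right; points are arrays (replicate 1 left, replicate 2 right) and lines join group means of 2 arrays. The red probe set, 11720013_a_at, has treated arrays that overlap the DMSO arrays in both lines at 400 nM, while the blue one, 11720014_a_at, has estimates of -1.63 in IMR-32, which passed, and -0.98 in Kelly, which did not, at 400 nM.

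The 9-1-1 clamp, a ring of RAD9A, RAD1 and HUS1 that marks damaged DNA, and its loader RAD17 were lower in 3 of 4 cases. The share over all genes was 39.0%. RAD17 was at 99.5 and 157 in 400 nM arrays, against 790 and 1204 in DMSO, a 7.80-fold lower level (log2 change -2.96 ± 0.81, adjusted p = 0.0240). RAD9A was at 93.9 and 98.5, against 275 and 392 (log2 change -1.77 ± 0.39, adjusted p = 0.0175). RAD1 was at 146 and 138, against 541 and 629 (log2 change -2.04 ± 0.67, adjusted p = 0.0395), and 5 of its 6 probe sets passed in the test of every probe set. HUS1 did not pass, at 164 and 153 against 302 and 330 (log2 change -0.99 ± 0.38, adjusted p = 0.0680). In all 4 genes both treated arrays lay below both DMSO arrays, as in 76.6% of all genes.

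All 3 effector kinases fell in IMR-32 cells, where 39.0% of all genes fell. CHEK1 was at 347 and 339 in 400 nM arrays, against 864 and 1311 in DMSO (log2 change -1.64 ± 0.57, adjusted p = 0.0490). CHEK2 was at 105 and 123, against 503 and 516, a 4.48-fold lower level (log2 change -2.16 ± 0.63, adjusted p = 0.0283). WEE1 was at 376 and 281, against 2080 and 2336, a 6.78-fold lower level (log2 change -2.76 ± 0.56, adjusted p = 0.0174). CHEK1 was the closest of the 25 to the threshold, although each of its 6 probe sets passed when every probe set was tested.

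The CDC25 phosphatases, which oppose WEE1, fell too, against 39.0% of all genes. CDC25A, which activates CDK2 at the G1/S transition, was at 177 and 138 in 400 nM arrays, against 1488 and 1687 in DMSO, a 10.1-fold lower level (log2 change -3.34 ± 0.47, adjusted p = 0.0174). CDC25C, which acts on CDK1 at mitotic entry, was at 67.8 and 68.2, against 402 and 504 (log2 change -2.73 ± 0.69, adjusted p = 0.0203). CDC25B was at 696 and 720, against 1387 and 1685, 2.16-fold lower (log2 change -1.11 ± 0.35, adjusted p = 0.0348), and its estimate was 0.02 under quantile normalization. No treated array reached a DMSO array in any of the 3 paralogues, as in 76.6% of all genes. PPM1D (WIP1), the p53-induced phosphatase that switches checkpoint kinases off, had the largest decrease of the 31, at 180 and 118 against 1689 and 2182, a 13.2-fold lower level (log2 change -3.72 ± 0.67, adjusted p = 0.0174). All 4 of its probe sets passed, with log2 changes between -3.44 and -3.72.

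**Figure D3:**
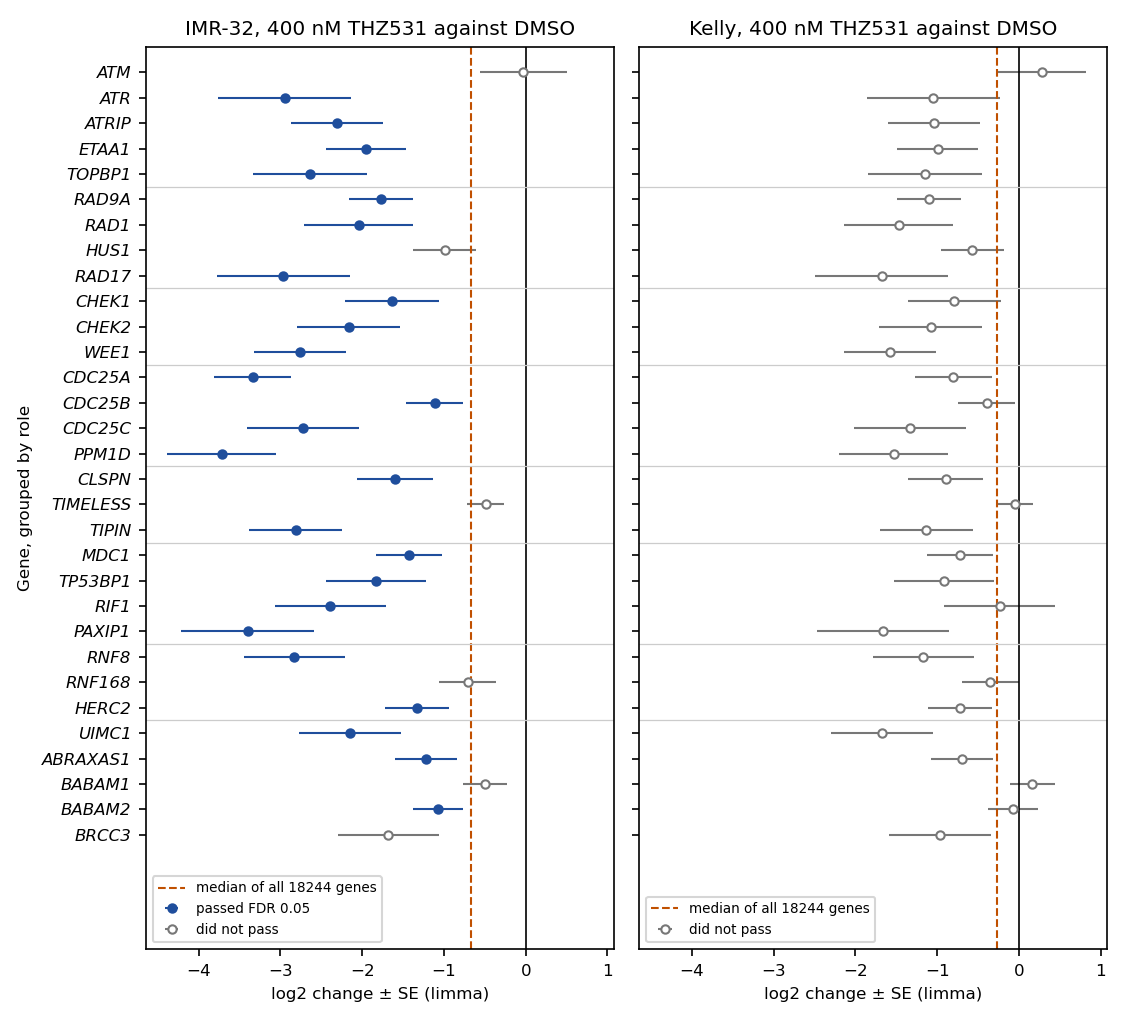
Log2 change ± SE (limma, 2 arrays per group) of the 31 genes at 400 nM THZ531 against DMSO in IMR-32 (left) and Kelly (right); filled points passed at a false discovery rate of 0.05 and the dashed line is the median of all 18244 genes (-0.67 in IMR-32, -0.26 in Kelly). In IMR-32, 25 points are filled and in Kelly 0 are filled, with 29 of the 31 Kelly estimates below 0.

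The fork protection group divided. Claspin (CLSPN), the adaptor through which ATR reaches CHK1, was at 42.8 and 34.0 in 400 nM arrays, against 97.9 and 136 in DMSO (log2 change -1.60 ± 0.46, adjusted p = 0.0276). TIPIN was at 86.8 and 108, against 572 and 810, a 7.02-fold lower level (log2 change -2.81 ± 0.57, adjusted p = 0.0174). TIMELESS, the obligate partner of TIPIN, was at 1301 and 1203, against 1610 and 1922 (log2 change -0.49 ± 0.23, adjusted p = 0.114). Its 2 probe sets gave nearly equal estimates, -0.49 and -0.48, neither of which passed, while all 3 TIPIN probe sets passed.

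The chromatin mediators all fell, against 39.0% of all genes. PAXIP1 (PTIP), which joins 53BP1 at breaks, was at 52.6 and 57.8 in 400 nM arrays, against 505 and 672 in DMSO, a 10.6-fold lower level (log2 change -3.40 ± 0.81, adjusted p = 0.0184). RIF1, the 53BP1 effector that limits end resection, was at 66.8 and 71.9, against 195 and 676 (log2 change -2.39 ± 0.68, adjusted p = 0.0265). TP53BP1 was at 87.7 and 89.5, against 236 and 421 (log2 change -1.83 ± 0.62, adjusted p = 0.0436). MDC1, which binds phosphorylated H2AX, was at 508 and 554, against 1316 and 1546 (log2 change -1.43 ± 0.40, adjusted p = 0.0260). No treated array reached a DMSO array in any of the 4 genes, as in 76.6% of all genes. Of the 4 probe sets of MDC1, 3 passed. The dim 11748150_a_at (mean log2 5.42, against a median of 6.33 over all rows) had an estimate of -0.07 ± 0.25 (adjusted p = 0.821).

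In the ubiquitin arm, RNF8 and RNF168 act in sequence but gave different values. RNF8 was at 118 and 95.7 in 400 nM arrays, against 708 and 808 in DMSO, a 7.10-fold lower level (log2 change -2.83 ± 0.62, adjusted p = 0.0175). Its other probe set was dim (mean log2 5.07, against a median of 6.33 over all rows) and had an estimate of -0.46 ± 0.24 (adjusted p = 0.152). RNF168 was at 26.3 and 16.4 against 32.8 and 35.4 (log2 change -0.71 ± 0.35, adjusted p = 0.134). Its only probe set was dim: it was the 1 member in the dimmest quartile of genes, where 9.08% of all genes were lower. Its smaller change therefore cannot be set level with that of RNF8. HERC2, a large ligase that works with RNF8, was at 380 and 431, against 944 and 1095 (log2 change -1.33 ± 0.39, adjusted p = 0.0281), and its estimate was 0.03 under quantile normalization. Its second probe set, with a mean log2 of 5.88, had an estimate of -0.28 ± 0.22 (adjusted p = 0.327). A further 2 probe sets that name HERC2 together with its pseudogenes, and 2 that name BABAM2 together with MRPL33, were left out.

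The BRCA1-A complex, which brings BRCA1 to ubiquitin-marked chromatin, had the smallest median change of the 8 roles (-1.22), with 3 of 5 genes lower. The share over all genes was 39.0%. UIMC1 (RAP80), its ubiquitin reader, was at 127 and 142 in 400 nM arrays, against 534 and 661 in DMSO (log2 change -2.14 ± 0.62, adjusted p = 0.0281). ABRAXAS1, its scaffold, was at 55.0 and 53.3, against 103 and 154 (log2 change -1.22 ± 0.38, adjusted p = 0.0333). BABAM2 (BRE) was at 252 and 216, against 444 and 539 (log2 change -1.07 ± 0.31, adjusted p = 0.0272), and its estimate was 0.45 under quantile normalization. The deubiquitinase BRCC3 was at 44.4 and 84.6, against 137 and 281 (log2 change -1.68 ± 0.62, adjusted p = 0.0581), and BABAM1 (MERIT40) was at 985 and 660, against 1140 and 1138 (log2 change -0.50 ± 0.27, adjusted p = 0.170). In both of these genes the treated arrays lay below the DMSO arrays, as in 76.6% of all genes. For UIMC1 and ABRAXAS1 the sign differed between probe sets, since 1 further probe set of UIMC1 and 2 of ABRAXAS1 had estimates above 0, none of which passed. These were dim, with mean log2 intensities of 4.19 (UIMC1), 4.90 and 4.55 (ABRAXAS1), against a median of 6.33 over all rows.

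Over all 91 probe sets of the 31 genes, 62 were lower and 0 higher in IMR-32 cells at 400 nM when every probe set was tested, against 36.6% lower and 0.329% higher of all 45278 probe sets. Of the 91 estimates 88 were below 0, as were 90.7% of all probe sets. Of the 23 genes with more than 1 probe set, 21 had all estimates on the same side of 0.

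In Kelly cells, 400 nM THZ531 gave 0 called genes among the 31 and 0% among all genes tested with limma. The smallest adjusted p of any gene was 0.503. At an unadjusted p under 0.05, RAD9A, WEE1, PPM1D and UIMC1 were lower, 4 of 31, against 6.45% of all genes. The median log2 change was -0.97 over the members and -0.26 over all genes. Both 400 nM arrays lay below both DMSO arrays in 25 of 31 genes, against 48.8% of all genes. The exceptions were ATM, TIMELESS, RIF1, RNF168, BABAM1 and BABAM2, and 0 of the 31 had both treated arrays above both DMSO arrays, against 9.26% of all genes. The Kelly arrays disagreed with each other: the median member change was -1.36 on replicate 1 and -0.52 on replicate 2. The 3 arrays that stood apart were replicate 2 of Kelly 400 nM, Kelly 100 nM and IMR-32 100 nM. Without them the Kelly 400 nM group was replicate 1 alone, with a median member change of -1.36 (all genes -0.34). With replicate 1 of the same groups left out instead, it was replicate 2 alone, with -0.52 (all genes -0.16). Leaving out either IMR-32 100 nM array alone left the median member change at -0.97.

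Of the 31 Kelly estimates 29 were below 0, as were 74.7% of all genes. WEE1 was at 284 and 613 in 400 nM arrays, against 1220 and 1274 in DMSO (log2 change -1.58 ± 0.56, adjusted p = 0.503). CHEK1 was at 342 and 591, against 733 and 824 (log2 change -0.79 ± 0.57), and CHEK2 was at 376 and 555, against 982 and 950 (log2 change -1.08 ± 0.63). ATR was at 28.3 and 63.4, against 72.6 and 105 (log2 change -1.05 ± 0.81). In each of these genes replicate 1 was the lower treated array. CDC25A was at 789 and 856, against 1378 and 1489 (log2 change -0.80 ± 0.47), CDC25B at 960 and 1004, against 1229 and 1358 (log2 change -0.40 ± 0.35), and CDC25C at 161 and 274, against 523 and 536 (log2 change -1.34 ± 0.69). CDC25A and CDC25B had closer treated duplicates than CDC25C. BABAM1 was at 1876 and 1853 against 1423 and 1948, with overlapping arrays (log2 change 0.16 ± 0.27, adjusted p = 0.803).

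At 100 nM no member passed in either line, and no gene did (0% of 18244). In IMR-32 cells the median member change was -0.86, against -0.30 over all genes, but it was the mean of 2 unlike arrays: -1.64 on replicate 1, where 30 of 31 genes were below both DMSO arrays, and -0.12 on replicate 2, where 11 were. Over all genes the shares below both DMSO arrays were 72.7% and 32.4%. Both 100 nM arrays lay below both DMSO arrays in 10 of 31 genes, against 27.0% of all genes. Without replicate 2, 17 members and 27.5% of all genes passed as lower, and without replicate 1, 0 members and 0% of all genes did. CHEK2 shows the gap, with 503 and 516 (DMSO), 113 and 520 (100 nM), then 105 and 123 (400 nM). At 100 nM, replicate 1 lay between the 400 nM arrays and replicate 2 just above the DMSO arrays.

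In Kelly cells at 100 nM the median member change was -0.87 (all genes -0.33), with -0.45 on replicate 1 and -1.41 on replicate 2. Both 100 nM arrays lay below both DMSO arrays in 24 of 31 genes, against 53.6% of all genes. RIF1, at 228 and 83.2 against 73.9 and 161 in DMSO, had an estimate above 0 (log2 change 0.33 ± 0.68, adjusted p = 0.796), as had ATM (0.58 ± 0.54) and BABAM1 (0.01 ± 0.27). The other 28 of 31 were below 0, as were 82.8% of all genes.

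Across doses in IMR-32 cells, genes differed in whether replicate 1 at 100 nM was already at the 400 nM level. CDC25A read 1488 and 1687 without THZ531, 481 and 1587 with 100 nM, then 177 and 138 with 400 nM. In the same order PPM1D read 1689 and 2182, 854 and 1834, then 180 and 118, and WEE1 read 2080 and 2336, 1147 and 2155, then 376 and 281. For these 3 genes both 400 nM arrays were below both 100 nM arrays, as in 53.7% of all genes. CHEK1 read 864 and 1311, 354 and 1149, then 347 and 339, with 100 nM replicate 1 close to both 400 nM arrays. CDC25B read 1387 and 1685, 633 and 1455, then 696 and 720, and replicate 1 at 100 nM was its lowest IMR-32 array. CDC25C read 402 and 504, 86.5 and 464, then 67.8 and 68.2, and ATR read 111 and 299, 20.3 and 108, then 18.4 and 30.2.

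Tested directly, 400 nM against 100 nM gave 0 members lower in IMR-32 cells, where 0.00548% of all genes (1 gene) were lower. All 31 estimates were below 0 (92.2% of all genes), with a median of -1.01 against -0.42 over all genes. An unadjusted p under 0.05 was reached by 7 members, against 19.5% of all genes. Without 100 nM replicate 1, 17 members and 32.6% of all genes were lower, and without replicate 2, 0 members and 0% of all genes were. In Kelly cells the 2 doses gave 0 called members and a median difference of 0.01 (all genes 0.06). That value changed sign with the arrays used. It was -0.95 (all genes -0.25) with the 3 arrays that stood apart left out. With replicate 1 of the same groups left out it was 0.94 (all genes 0.33). Each of these set 1 array against 1. The direction of the Kelly dose step in these genes therefore depended on which duplicate was used.

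**Figure D4:**
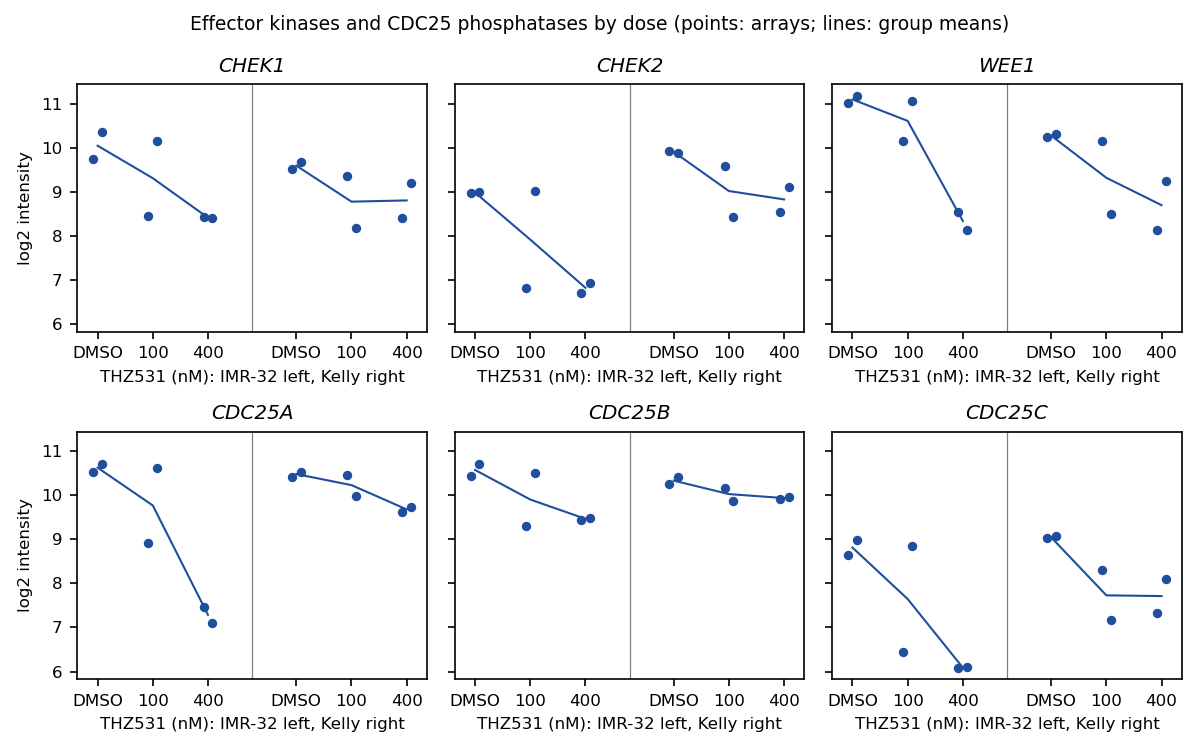
Log2 intensity of the effector kinases (top) and CDC25 phosphatases (bottom) by THZ531 dose, IMR-32 on the left of each panel and Kelly on the right; points are arrays (replicate 1 left, replicate 2 right) and lines join means of 2 arrays. CDC25A in IMR-32 lies at 177 and 138 intensity units at 400 nM against 1488 and 1687 in DMSO, while in Kelly it lies at 789 and 856 against 1378 and 1489.

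The estimated log2 change at 400 nM was lower in IMR-32 than in Kelly cells for each of the 31 genes, but the difference between lines passed in 0 members and in 0% of all genes. Its median was -0.91 over the members and -0.49 over all genes, where 85.3% of genes had a difference below 0. An unadjusted p under 0.05 was reached by CDC25A, PPM1D and BABAM2, 3 of 31, against 10.3% of all genes lower at that level. CDC25A had the largest difference, -2.54 ± 0.66 (95% confidence interval -4.04 to -1.04, adjusted p = 0.449). PPM1D differed by -2.19 ± 0.94 (interval -4.32 to -0.05) and BABAM2 by -0.99 ± 0.43 (interval -1.98 to -0.01). Most intervals were wide: that of CHEK1 ran from -2.68 to 0.99 and that of RAD1 from -2.71 to 1.56, so for these genes equal responses and responses several-fold apart both lie inside them. With replicate 1 of the 3 groups left out, the median difference over the members was -1.26 (all genes -0.60). With replicate 2 left out it was -0.63 (all genes -0.39). Kelly 400 nM was then 1 array in each case.

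In DMSO the lines differed in 2 members. ETAA1 was higher in IMR-32 cells, at 373 and 596, against 89.3 and 107 in Kelly cells, a 4.82-fold difference (log2 difference 2.27 ± 0.49, adjusted p = 0.0317). TIMELESS was higher as well, at 1610 and 1922 in IMR-32, against 889 and 867 in Kelly (log2 difference 1.00 ± 0.23, adjusted p = 0.0396). Of all genes, 3.02% were higher and 1.98% lower in IMR-32, and 2 of 31 members were higher and 0 lower. Both calls were lost without any 1 of the 4 DMSO arrays, and also without either IMR-32 array treated with 400 nM, because all groups share 1 estimate of the spread. Median centring gave 1 higher and 3 lower members (4.75% and 4.48% of all genes), and quantile normalization 2 higher and 4 lower (4.83% and 4.68% of all genes). The median member difference was 0.15 (all genes 0.11), and in 11 members both IMR-32 arrays lay above both Kelly arrays (37.8% of all genes) and in 7 below them (20.9%).

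The genes span 6.43 kb (RAD9A) to 450 kb (BABAM2) by RefSeq, with a median of 49.8 kb, against 25.7 kb over 18201 genes with a span. ATM lies at chr11:108223067-108369102, CDC25A at chr3:48157146-48188417 and PPM1D at chr17:60600193-60666280 (GRCh38.p14). In quartiles of span, 1 member was among the shortest genes, 9 in the second, 14 in the third and 7 among the longest. The shares of all genes lower in IMR-32 at 400 nM in those quartiles were 24.9%, 39.8%, 47.3% and 44.4%, and the members lower were 1 of 1, 7 of 9, 11 of 14 and 6 of 7. Within the members, span and change were weakly related in IMR-32 (Spearman rho -0.15 over 31 genes measured on shared arrays, -0.28 over all genes) and not ordered in Kelly (0.02, against -0.25). The 5 longest members spread over most of the range in IMR-32 cells, with log2 changes of -1.07 for BABAM2, -1.33 for HERC2, -0.03 for ATM, -2.95 for ATR and -2.39 for RIF1. The ATM value is that of 1 of its 5 probe sets, which disagreed, so its place in this comparison is uncertain.

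**Figure D5:**
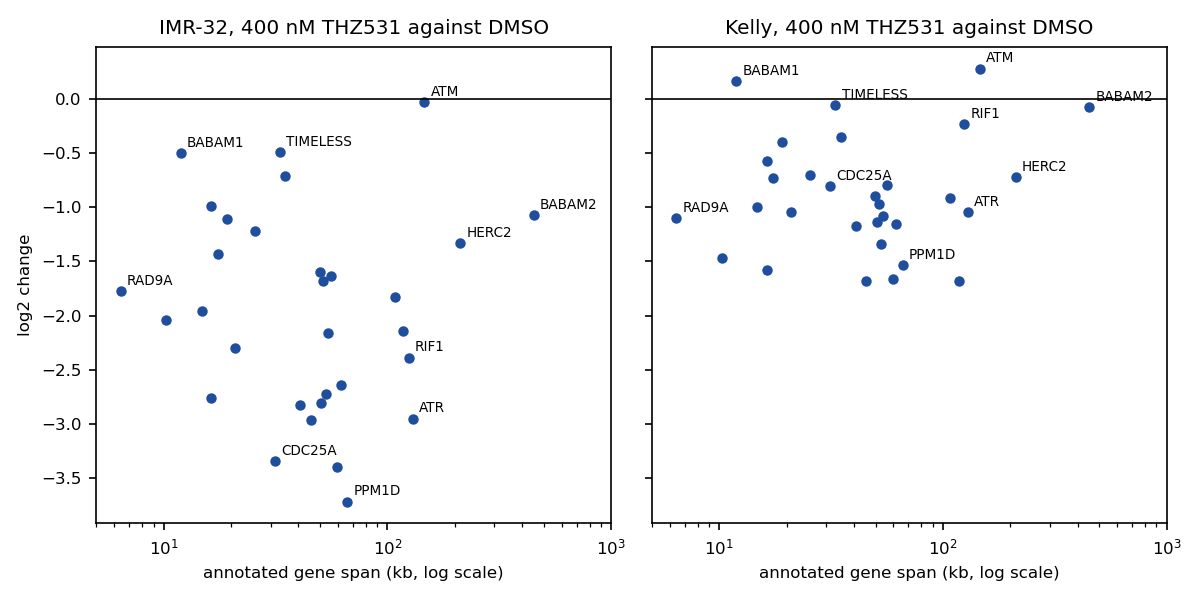
Log2 change at 400 nM THZ531 against DMSO (vertical axis) by annotated gene span in kb on a log axis, for the 31 genes in IMR-32 (left) and Kelly (right); each point is 1 gene and 10 are named. Of the 10 named genes, PPM1D, CDC25A and ATR are lowest in IMR-32, whereas ATM at 146 kb and BABAM2 at 450 kb lie above them. Each gene is shown by the probe set that stands for it, and the probe sets of ATM disagreed.

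Level also moved with the call. By mean log2 intensity over the 12 arrays, 1 member was in the dimmest quartile of genes, 4 in the next, 12 in the third and 14 in the brightest, and 9.08%, 29.6%, 64.6% and 52.9% of all genes in those quartiles were lower in IMR-32 at 400 nM. The members lower were 0 of 1, 3 of 4, 10 of 12 and 12 of 14. The part of span and of level in the members' share was not tested.

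Genes that work with these 31, taken from lists chosen with earlier results known, mostly fell in IMR-32 cells at 400 nM as well, where 39.0% of all genes were lower with a median of -0.67. Of 12 measured sensors and partners of the apical kinases, 10 were lower and 0 higher in IMR-32 at 400 nM, with a median of -1.56. They include RPA3, a subunit of the protein that coats single-stranded DNA (-1.51 ± 0.29), KAT5 (TIP60), the acetyltransferase that activates ATM (-2.09 ± 0.41), TTI2, a stabiliser of ATM and ATR (-2.59 ± 0.53), and NBN, the break sensor that recruits ATM (-3.02 ± 0.68). RPA1 and PRKDC, named after their values were seen, did not pass (-0.51 ± 0.55 and -0.52 ± 0.59). Of 14 measured partners of the ubiquitin arm, 11 were lower and 0 higher (median -1.91), among them the SUMO ligases PIAS4 (-1.80 ± 0.36) and PIAS1 (-2.27 ± 0.49), the ubiquitin ligase RAD18 (-2.96 ± 0.53) and L3MBTL2, a target of RNF8 (-2.16 ± 0.51). Of 16 measured cell cycle genes on which the checkpoint acts, 13 were lower and 0 higher (median -2.47), with the smallest adjusted p for the E cyclins CCNE1 (-2.40 ± 0.36) and CCNE2 (-3.07 ± 0.65), the mitotic kinase AURKA (-3.40 ± 0.63) and its activator BORA (-3.84 ± 0.79). CDKN1A (p21), the CDK inhibitor induced by p53 and also named after its value was seen, had an estimate of 0.04 ± 0.23 (adjusted p = 0.893). In Kelly cells 0 genes of the 3 lists passed at 400 nM, with medians of -0.57, -0.82 and -1.22, against -0.26 over all genes.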

How the data were processed

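The 12 arrays were grouped from the labels (2 lines, 3 treatments, 2 replicates). Per the submitters' notes, intensities were computed by the authors with MAS5 in the affy package (R 3.1.3), and per the study's methods they were then scaled to the ERCC spike-ins. The deposited values are linear intensities, between 0.89 and 33557 per probe set, and were used as they stand, log2-transformed with no pseudocount. The number of arrays, 2 per group, limits the precision. Of 49495 rows, those naming exactly 1 gene were kept, and the probe set of highest mean stood for each of the 18244 genes. limma 3.58.1 (R 4.3.3; lmFit and eBayes) was fitted to all 6 groups together, with residual df 6, and p-values were adjusted by Benjamini-Hochberg over all genes at 0.05; an exact permutation test of 2 against 2 arrays cannot go below 0.333. The fit was checked on simulated data with independent arrays and the same spread for every gene. That check does not cover duplicates that differ over all genes, as some do here. Alternatives were other scalings, a pseudocount of 16, other probe set rules, a level filter, other fits and leaving out arrays. All 31 genes were named by their role, whatever their values. The members and gene lists were chosen with earlier results of these data known. Promoters came from RefSeq (GRCh38.p14).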

Additional observations from a re-analysis of the deposited data

Results flagged for a closer look

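By the probe set that stands for it, BABAM1 at 400 nM THZ531 moved in opposite directions in the lines. Both IMR-32 arrays were below the IMR-32 DMSO mean (log2 -0.21 and -0.79) and both Kelly arrays were above the Kelly DMSO mean (0.17 and 0.15). Its other 2 probe sets did not show this in Kelly. There 11748858_a_at read 10.69 and 10.46 (log2) at 400 nM against 10.47 and 10.49 in DMSO. The dimmer 11761811_at read 3.97 and 4.75 against 5.10 and 5.27. The difference in response, IMR-32 minus Kelly, was -0.66 (limma, 95% confidence interval -1.54 to 0.21, adjusted p = 0.455) and did not pass. In Kelly cells the treated and DMSO arrays of the probe set that stands for the gene overlapped.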

How the results depend on the processing

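In IMR-32 at 400 nM the 25 lower members became 14 after median centring and 11 after quantile normalization. There 15.8% and 11.0% of all genes were lower, and the all-gene medians were 0.37 and 0.18. The count was 23 to 28 under the other settings that kept both arrays of each group fitted, where 34.0% to 58.9% of all genes were lower. Fewer members and fewer genes passed without 1 Kelly DMSO array. No gene passed without any 1 of the 4 arrays compared, with median member changes from -2.20 to -1.52. Under quantile normalization the estimates of CDC25B, HERC2 and BABAM2 turned to 0.022, 0.0301 and 0.4523. The share of lower among called genes of the whole table moved with scaling, from 7123 lower and 72 higher to 2881 and 3415 after median centring and 2010 and 1353 after quantile normalization.

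With replicate 2 of Kelly 400 nM, Kelly 100 nM and IMR-32 100 nM left out together, then with replicate 1 of those groups left out instead (chosen after seeing the data), the called members were 25 and 7 in Kelly at 400 nM, 26 and 0 in IMR-32 at 100 nM, 2 and 22 in Kelly at 100 nM, 6 and 28 for the IMR-32 dose step, 17 and 14 for the Kelly dose step, 7 and 21 for the difference between the lines, and 12 and 12 for the lines in DMSO. These counts took in both directions. The 26 in IMR-32 held 25 lower and 1 higher, and the 2 in Kelly 1 of each. The Kelly dose step gave 17 lower, then 14 higher. For the lines in DMSO 5 were lower and 7 higher both times (7.22% and 19% of all genes). All-gene medians were -0.34 and -0.16 in Kelly at 400 nM and -0.50 and -0.06 in IMR-32 at 100 nM. They were -0.17 and -0.48 in Kelly at 100 nM, and -0.19 and -0.64 for the IMR-32 dose step. Single arrays were also left out, those outside a comparison included (also chosen after seeing the data). The median member change then ran from -1.36 to -0.52 in Kelly at 400 nM and from -1.64 to -0.12 in IMR-32 at 100 nM. It ran from -1.61 to -0.18 for the IMR-32 dose step and from -1.26 to -0.62 for the difference between the lines. For the lines in DMSO it ran from -0.01 to 0.28. Where this left 1 array in a group, that array was assumed to vary like the other groups. The IMR-32 dose step gave 1 lower member after median centring (0.132% of all genes lower) and 2 after quantile normalization (0.4% of all genes). The difference between the lines gave 3 lower members from its own 8 arrays alone (9.68% of members, against 11.4% of all genes). The lines in DMSO gave 4 after median centring and 6 after quantile normalization (mostly lower in IMR-32, the opposite of the 2 higher). From the 4 DMSO arrays alone 5 members were lower and 7 higher (6.55% and 18.4% of all genes). With dim rows left out 1 was higher (2.94% of all genes), as with limma's trend and robust options (3.1% of all genes). The replicate block gave 0, where 2.53% of all genes were higher and 1.61% lower. Correlations of same-numbered arrays had no common sign (r from -0.78 to 0.36 over 15 pairs of groups, 7 above 0.1, those within IMR-32 among them at 0.16 to 0.27, and -0.05 between the lines in DMSO), so the numbers were not read as pairs; with the replicate block 23 members were lower in IMR-32 at 400 nM. The cause of these shifts was not tested.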
